A study of Ovis aries with 30 samples.

Results

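Adrenergic receptors are the cell surface proteins through which noradrenaline and adrenaline act. The 6 receptor genes described here were *ADRB1* and *ADRB3* of the beta class, *ADRA1A*, *ADRA1B* and *ADRA1D* of the alpha-1 class, and *ADRA2A* of the alpha-2 class. They were chosen by gene name and not by a cut on their values, though with earlier results of these data known. They are 6 of the 28524 genes of the count table. Other receptor subtypes were not analysed here.

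In brown fat, sympathetic nerves release noradrenaline in the cold, and the beta receptors pass the signal on through the stimulatory G protein Gs, which raises cyclic AMP, breaks down stored fat and turns on heat production by UCP1. Alpha-1 receptors couple to Gq and raise calcium inside the cell, and alpha-2 receptors couple to Gi, which lowers cyclic AMP. In the thyroid, sympathetic nerves reach blood vessels and follicles, and alpha-1 receptors are also known for contracting vessel walls.

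RNA was sequenced from brown adipose tissue (BAT) taken around the kidneys and from thyroid tissue of 15 newborn Romney lambs, 1 library per tissue and lamb, 30 in all. Cold lambs (6) were held at 4 °C for 2 days, ambient temperature (AT) lambs (6) at 20–22 °C for 2 days, and the controls (3), about 24 h old, were sampled at the start. All were the heavier lamb of a twin set and were allocated at random, with no genetic change or drug in any group. The 2 days of treatment also made the cold and AT lambs older, so that treatment and age cannot be told apart against the controls. Lambs of equal age are set side by side only in cold against AT. The study's authors left out 1 control for outlier counts. The values below use the same 2 controls, lambs 237 and 246, and the third control, lamb 238, is given beside them where it bears on a result.

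Depth was 31556500 to 37025998 counts per library in BAT and 25062784 to 30124871 in thyroid tissue. An unnamed gene pair took much of the BAT reads, leaving 8093700 to 18276329 counts for all other genes. Tissue markers went with the labels. Thyroglobulin (*TG*) lay between 1216000 and 5344000 normalized counts in the thyroid libraries used and between 9.47 and 1108 in BAT. All 6 adipocyte markers were higher in BAT. Some thyroid libraries also had high markers of other tissues. In AT lamb 240 skeletal muscle markers summed to 1664000 normalized reads per kb of exon, and thyrocyte markers to 182300. In control 237 these sums were 169400 and 394900. Parathyroid and C cell markers reached 318800 in AT lambs. The part of these markers in the thyroid receptor levels was not tested. In BAT, *UCP1* ranged from 194.7 normalized counts in AT lamb 245 to 22460 in a control, and was 87350 in lamb 238. A normalized count is the deposited count divided by a size factor of the library taken from *ACTB*, *RPL19* and *HUWE1*. Except where a scale over both tissues is named, these factors were set within each tissue. Such counts compare libraries of a tissue and not the tissues with each other. In bulk tissue, fewer cells of a type and less RNA per cell cannot be told apart.

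All 6 genes are single loci in the Oar_rambouillet_v1.0 genome. *ADRB1* lies at chr22:37686774-37689550 on the plus strand in 1 exon of 2777 bases. *ADRA2A* is on the same chromosome and strand, at chr22:34728217-34731131, also in 1 exon, of 2915 bases. *ADRB3* lies at chr26:36182437-36185129 on the minus strand in 2 exons with 1970 bases. *ADRA1A* spans chr2:40884093-41057766 on the plus strand with 3 exon blocks of 4887 bases in all, and LOC114108763 lies within this span without sharing exon bases. *ADRA1B* spans chr5:74438457-74499224 and *ADRA1D* chr13:52972651-52996903, both on the plus strand with 2 exon blocks, of 1860 and 2908 bases. No other gene shares exon bases with any of the 6.

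The tissues carried different sets of receptors. To compare levels between genes, normalized counts were divided by the exon length of each gene, giving reads per kb. With size factors set within each tissue, these levels rank genes within a tissue. They do not compare a gene between the tissues. In BAT, *ADRB3* was the highest at 201.3 ± 120.6 reads per kb (mean ± SD, n = 14). It was followed by *ADRA1A* at 97.7 ± 61.6, *ADRB1* at 50.3 ± 19.2, *ADRA1D* at 36.2 ± 8.40, *ADRA2A* at 19.7 ± 9.61 and *ADRA1B* at 6.17 ± 4.42. The order held within libraries at every step but one. *ADRB3* exceeded *ADRA1A* in 13 of 14 libraries (exact sign-flip permutation test, 2-sided, adjusted p = 0.000814 over the 5 steps), and *ADRA1A* exceeded *ADRB1* in 14 of 14 (adjusted p = 0.000305, exact permutation). *ADRB1* and *ADRA1D* were not separated, with *ADRB1* higher in 9 of 14 (exact permutation, adjusted p = 0.0627), and among AT lambs alone *ADRB1* was higher in 2 of 6. With all 3 controls this step passed (exact permutation, adjusted p = 0.0378).

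In thyroid tissue the alpha-1 genes *ADRA1B* and *ADRA1D* led, at 43.9 ± 13.9 and 35.5 ± 19.5 reads per kb (n = 14). They were not separated from each other (exact sign-flip permutation test, adjusted p = 0.148). *ADRA1D* was above the next gene in 14 of 14 libraries (exact permutation, adjusted p = 0.00061). *ADRB3* at 9.01 ± 5.62, *ADRA2A* at 8.97 ± 3.22 and *ADRB1* at 8.36 ± 3.62 reads per kb were not separated as neighbours (exact permutation, adjusted p = 0.448 for both steps). *ADRA1A*, the second highest receptor gene in BAT, was the lowest in thyroid tissue at 4.61 ± 1.43 reads per kb (below *ADRB1*, exact permutation, adjusted p = 0.0119). With the third control, in which *ADRA1A* stood at 90.1 normalized counts, this last step was no longer separated (adjusted p = 0.143, exact permutation).

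As a share of the summed reads per kb of the 6 genes, *ADRB3* took 28.3% to 64.9% of each BAT library used and 1.26% to 17.2% of each thyroid library. *ADRA1B* showed the opposite, with 0.398% to 3.81% in BAT and 22.7% to 59.9% in thyroid tissue. Neither range overlapped between the tissues. AT lamb 245 was unlike the other BAT libraries: *ADRA2A* took 29.3% there, against at most 9.73% in the other 13, and *ADRB3* took 28.3%. The same library had the lowest *UCP1*. It also had the lowest sum of 5 brown adipocyte markers, of which *UCP1* is 1. That sum was 466.6 reads per kb, with no marker at 0. The next lowest was 1632 in AT lamb 241, and cold lambs had 2898 to 10130. The part of these markers in the receptor shares was not tested.

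**Figure D1:**
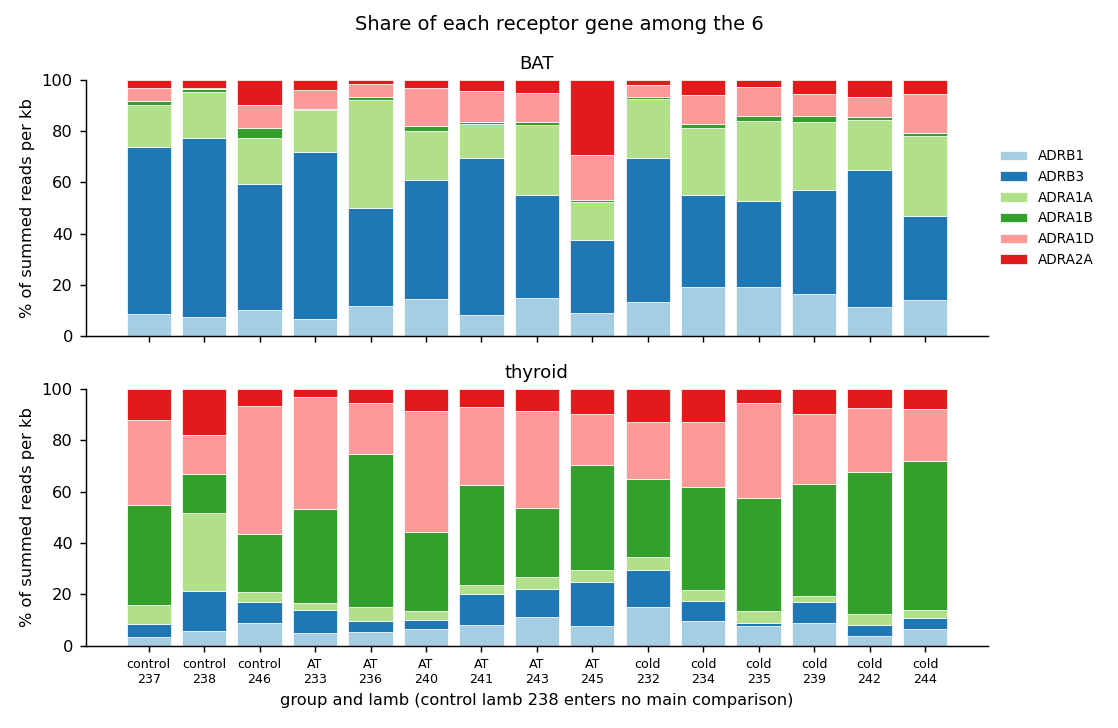
Share of each receptor gene in the summed normalized reads per kb of the 6 genes (vertical axis, %), for each lamb (horizontal axis, by group), in BAT above and thyroid tissue below. *ADRB3* takes 28.3% to 64.9% of the BAT libraries used and 1.26% to 17.2% of the thyroid libraries, and *ADRA2A* takes 29.3% in BAT of AT lamb 245.

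All 6 genes differed between BAT and thyroid tissue in a fit of both tissues by edgeR's quasi-likelihood test. A gene was called at an absolute log2 difference of at least 1 and a Benjamini-Hochberg adjusted p under 0.05. By that rule 39.2% of the 17021 genes tested were called, 25% as higher in BAT and 14.2% as lower, so that 6 of 6 stands against a high background. Values in this paragraph and the next are normalized counts on a scale set over both tissues. *ADRB3* had 110.2 to 1605 in BAT against 1.23 to 23.2 in thyroid tissue, a log2 difference of 5.99 ± 0.51 (SE, adjusted p = 9.81e-11). *ADRA1A* had 145.5 to 2195 against 8.25 to 23.8, a log2 difference of 5.66 ± 0.40 (adjusted p = 2.21e-12). Both tissues were far apart for these genes, with no overlap of libraries. The share of all genes whose libraries do not overlap between the tissues is not given here. A lack of overlap in this paragraph and the next thus has no background beside it. *ADRB1* had 49.7 to 345.2 in BAT against 5.31 to 28.1 in thyroid tissue, again without overlap (3.98 ± 0.35, adjusted p = 1.13e-10).

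The alpha-2 gene *ADRA2A* was higher in BAT by 2.58 ± 0.28 on the log2 scale (adjusted p = 4.71e-09), and its lowest BAT library, at 40.3, lay above the highest thyroid library. *ADRA1D* was also higher in BAT, by 1.32 ± 0.22 (adjusted p = 5.16e-06), but its libraries overlapped, with 100.3 to 236.6 against 35.0 to 150.9. *ADRA1B* was the only one of the 6 to be lower in BAT (-1.27 ± 0.27, adjusted p = 0.000153), at 2.71 to 48.6 against 30.4 to 83.0 with overlap. The median gene differed by 0.243 on this scale and by 0.0742 with TMM scaling, under which all 6 calls and directions held. The reads of *ADRB3* in thyroid tissue were few, 2 to 43 per library, and those of *ADRA1B* in BAT 3 to 39. *ADRA1B* did not pass the filter of 10 reads in 10 libraries within BAT, and passed it here through thyroid tissue, where it was higher.

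Vessel and nerve markers moved with the tissue as well. All 7 smooth muscle and pericyte markers and all 7 endothelial markers were higher in BAT, and of 5 tested markers of sympathetic nerve and Schwann cells 4 were higher and 0 lower. Their part in the receptor differences was not tested.

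In BAT, no receptor gene differed by the rule above between any of the groups. Of the 6 genes, 5 passed the filter of 10 reads in 10 libraries, and *ADRA1B* did not. Against controls, 0 of 5 were called in cold lambs by edgeR, where 1.21% of 14905 genes were called, and 0 of 5 in AT lambs, where 6.07% were. DESeq2 also called 0 in both, beside 628 and 1301 of all genes. At an unadjusted p under 0.05 by edgeR there were 2 of 5 receptor genes in cold lambs, beside 2704 of the 14905 genes. In AT lambs there were 0 of 5, beside 3868. Between cold and AT lambs 0 of 5 were called by either tool, where edgeR called 0.275% of genes and DESeq2 called 145 genes. At an unadjusted p under 0.05 there were 0 of 5, beside 1831 of all genes. With TMM the called genes of all 14905 split as 227 higher and 91 lower in cold lambs, against 86 and 95, and as 649 and 366 in AT lambs, against 426 and 478. With 2 controls these comparisons leave wide intervals, which are given with the values. The share of all genes whose groups do not overlap is not given here. A lack of overlap between groups below thus has no background beside it.

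*ADRB3*, the beta receptor most typical of brown fat in many mammals, stood at 1004 and 414.2 normalized counts in the controls and 897.1 in the third control. In AT lambs it ranged from 66.2 to 659.0 with a median of 397.9, and in cold lambs from 163.2 to 558.1 with a median of 266.5. Both treated groups reached into the range of the controls, since 3 AT lambs and 1 cold lamb lay above control 246. The log2FC was -1.24 ± 0.58 in cold lambs (95% interval -2.47 to -0.00475, adjusted p = 0.273) and -0.87 ± 0.58 in AT lambs (-2.12 to 0.37, adjusted p = 0.365). Cold against AT lambs gave -0.36 ± 0.44 (-1.29 to 0.57, adjusted p = 0.741). The sum of 5 brown adipocyte markers was also lower in both treated groups than in the controls. Between the treated groups it went the other way from *ADRB3*, with medians of 6351 reads per kb in cold and 4315 in AT lambs. It was 14080 to 16330 reads per kb in controls, 2898 to 10130 in cold lambs and 466.6 to 9756 in AT lambs. It includes *UCP1*, at 20590 to 22460 normalized counts in controls, 2907 to 12410 in cold lambs and 194.7 to 12950 in AT lambs. Not every marker fell, since the paper reports *PRDM16*, another brown adipocyte marker, as upregulated in BAT of AT lambs. The part of these markers in the *ADRB3* levels was not tested.

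*ADRB1*, the beta receptor also found in heart muscle, was close between the groups in its centres. It was at 192.5 and 121.7 normalized counts in the controls, at 99.8 to 187.9 (median 164.5) in cold lambs and at 29.8 to 218.4 (median 111.5) in AT lambs. The groups overlapped. The log2FC was -0.06 ± 0.50 in cold and -0.36 ± 0.49 in AT lambs against controls (adjusted p = 0.963 and 0.684), and 0.30 ± 0.36 for cold against AT (95% interval -0.46 to 1.06, adjusted p = 0.738). These intervals do not exclude changes near 2-fold.

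*ADRA1A*, the main alpha-1 gene of BAT here, had alike centres but unlike spreads. Controls were at 628.4 and 376.8 normalized counts, cold lambs at 328.3 to 571.2 (median 445.5) and AT lambs at 87.3 to 1388 (median 354.6). The AT lambs thus spread 15.9-fold from lowest to highest and the cold lambs 1.74-fold, with the extremes in lambs 245 and 236. A wider spread in AT than in cold lambs was not particular to this gene. It was 7.32-fold against 1.88-fold for *ADRB1*, 9.96 against 3.42 for *ADRB3* and 7.53 against 2.79 for *ADRA1B*. For *ADRA1D* it was 2.46 against 1.62, and for *ADRA2A* 3.38 against 2.51. An exact permutation test of the *ADRA1A* spread, chosen after these values were seen, gave p = 0.0346. It gave 0.0996 when adjusted over the 12 gene and tissue pairs, of which none passed. The log2FC lay between -0.18 and -0.0018 in the 3 comparisons, with SEs of 0.47 to 0.67.

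*ADRA1B* had its highest BAT levels in the controls, at 26.7 and 30.4 normalized counts. Cold lambs had 5.81 to 16.2 (median 9.41) and AT lambs 1.63 to 12.3 (median 7.5), so that neither group overlapped with these 2 controls. The third control, at 12.9 from 6 reads, lay within the cold range. The exact permutation test gave p = 0.0357 for cold lambs, the smallest that 28 splits allow, and p = 0.0714 for AT lambs. With edgeR's filterByExpr, which keeps this gene, the log2FC against controls was -1.99 ± 0.57 in AT lambs (adjusted p = 0.0437) and -1.54 ± 0.57 in cold lambs (adjusted p = 0.168). Without any filter the AT value was -1.99 ± 0.58 (adjusted p = 0.055). Smooth muscle and pericyte markers summed to 10800 to 17750 reads per kb in the controls, 3792 to 7510 in AT lambs and 5848 to 16180 in cold lambs, with 2 of the 7, *ACTA2* and *TAGLN*, called as lower in AT lambs. Their part in the *ADRA1B* levels, and that of the brown adipocyte markers given for *ADRB3*, was not tested.

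*ADRA1D*, a receptor of vessel smooth muscle, was at 115.0 and 115.5 normalized counts in the controls, at 68.8 to 111.5 (median 95.7) in cold lambs and at 60.2 to 148.1 (median 118.6) in AT lambs. The cold lambs all lay below both controls, by little. The third control stood far from all other BAT libraries at 8.6 normalized counts, from 4 reads. The log2FC was -0.30 ± 0.29 in cold and -0.02 ± 0.30 in AT lambs (adjusted p = 0.637 and 0.973), and with all 3 controls it turned to 0.285 and 0.563 without a call.

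*ADRA2A*, which opposes the beta receptors on cyclic AMP, was at 70.9 and 121.7 normalized counts in the controls and 62.4 in the third control. Cold lambs had 26 to 65.4 (median 44.8) and AT lambs 30.04 to 101.4 (median 54.7). The cold lambs lay below both controls, but 2 of them exceeded the third control. The log2FC was -1.07 ± 0.44 in cold lambs (95% interval -2 to -0.13, adjusted p = 0.211) and -0.77 ± 0.45 in AT lambs (adjusted p = 0.288). A fit with lamb 238 instead of lamb 246 gave -0.461 in cold lambs, and one with all 3 controls gave -0.82.

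**Figure D2:**
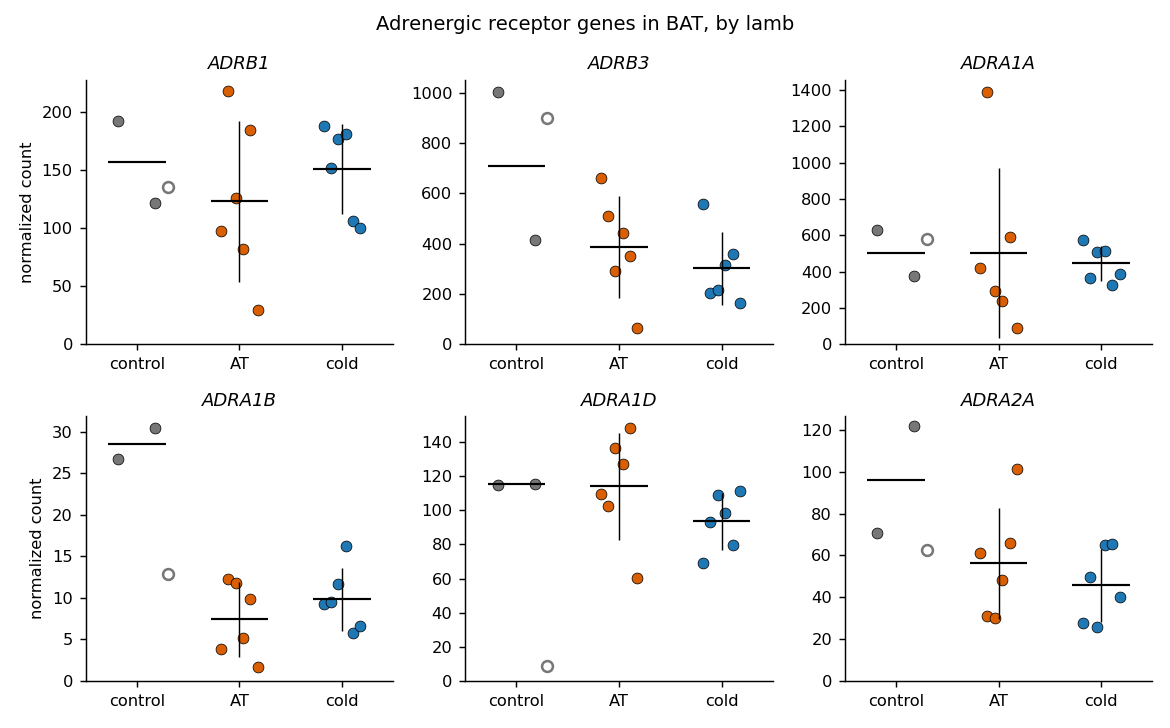
Normalized counts of the 6 receptor genes in BAT (vertical axes, starting at 0) by group. Filled points are the lambs used, open circles the third control, horizontal lines the mean of the filled points and vertical lines 1 SD for the groups of 6. *ADRA1A* spans 87.3 to 1388 in AT lambs and 328.3 to 571.2 in cold lambs, and *ADRA1B* is at 26.7 and 30.4 in the 2 controls against at most 16.2 in treated lambs.

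Within BAT, *ADRB1* and *ADRA1A* varied together from lamb to lamb. Over the 14 libraries the correlation of log2(normalized count + 1) was r = 0.914 (permutation test, adjusted p = 0.0005) and rho = 0.864 (permutation, adjusted p = 0.00625), with p-values adjusted over 25 pairs. Without the 2 libraries farthest from the median of *ADRB1*, r was 0.759. It was 0.923 on values minus the group means and 0.908 with TMM. No other pair of receptor genes held in both r and rho. *ADRB3* and *ADRA1A* had r = 0.663 (permutation, adjusted p = 0.0457) but rho = 0.508 (permutation, adjusted p = 0.208), and r was 0.259 without the 2 farthest libraries, so the relation rests on those.

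The 3 textbook targets of adrenergic signalling in brown fat were set beside the receptors: *UCP1*, the uncoupling protein, *DIO2*, which activates thyroid hormone, and *PPARGC1A*, a coactivator of mitochondrial genes. *ADRA1A* followed *DIO2* with r = 0.801 and rho = 0.802 (permutation tests, adjusted p = 0.00337 and 0.012), and *UCP1* with r = 0.803 and rho = 0.688 (permutation, adjusted p = 0.00425 and 0.038). With TMM the rho of *ADRA1A* and *UCP1* was 0.622 and did not pass (permutation, adjusted p = 0.0817). Both relations kept r of 0.759 and 0.66 without the 2 farthest libraries. *ADRB1* followed *UCP1* with r = 0.851 and rho = 0.736 (permutation, adjusted p = 0.00425 and 0.0226), and *DIO2* with r = 0.764 and rho = 0.741 (permutation, adjusted p = 0.00795 and 0.0226), with r of 0.476 and 0.578 without the 2 farthest. *ADRB3* and *UCP1* had r = 0.677 and rho = 0.569 (permutation, adjusted p = 0.0372 and 0.124), and r was 0.161 without the 2 farthest libraries, so that it rests on those. With all 3 controls, *ADRB3* and *UCP1* passed in both measures (r = 0.73 and rho = 0.646, permutation, adjusted p = 0.0117 and 0.0407), with r = 0.46 without the 2 farthest, whereas for *ADRB1* and *UCP1* that last value was then 0.269. The differences between these correlations were not tested. *ADRB1* and *PPARGC1A* gave r = 0.722 (permutation, adjusted p = 0.0238) but rho = 0.358 (permutation, adjusted p = 0.517) and r = 0.18 without the 2 farthest. *ADRA1D* and *ADRA2A* passed with none of the 3 targets. The libraries share their size factors and their content of brown adipocytes, whose part was not tested.

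**Figure D3:**
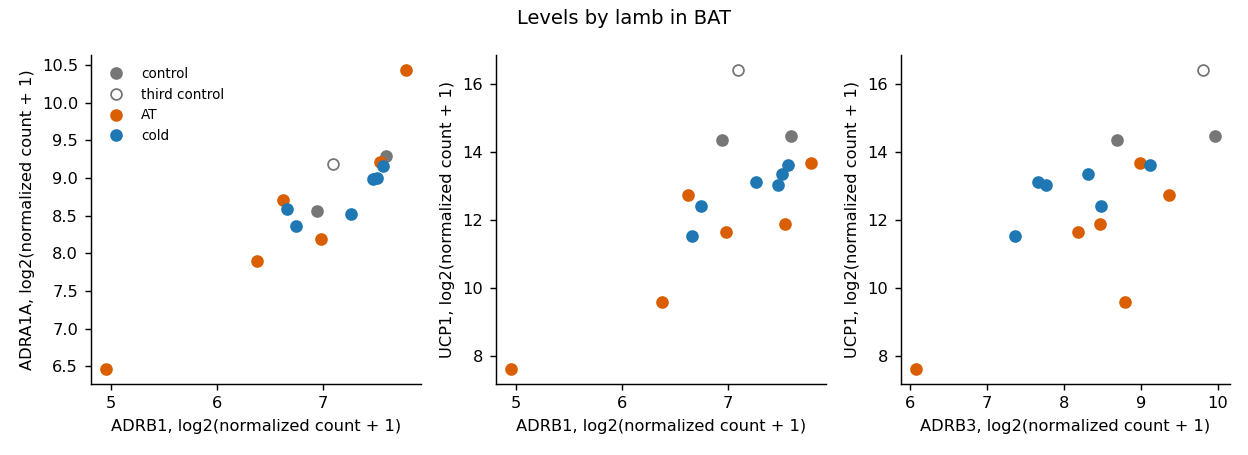
Levels in BAT by lamb as log2(normalized count + 1), for *ADRA1A* and *UCP1* against *ADRB1* and for *UCP1* against *ADRB3*, with 1 point per lamb coloured by group and an open circle for the third control. *ADRA1A* follows *ADRB1* (r = 0.914 over the 14 filled points), and AT lamb 245 is the lowest point in each panel.

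As a description, the 3 tested genes most like each receptor across the 14 BAT libraries were found by Pearson's r among 14904 genes. For *ADRB1* they were *BOLA3* (0.917), *ADRA1A* (0.914) and *TMEM120A* (0.889), where the median gene had 0.159. *ADRA1A* had *ADRB1*, *GPAM* (0.894) and *TMEM120A* (0.857), with a median of 0.127. For *ADRB3* they were *ACADVL* (0.931), *ALDOA* (0.931) and *HAGH* (0.922), with a median of 0.185. Thus *ADRB1* and *ADRA1A* shared neighbours among these, and *ADRB3* had others. *ADRA1D* was most like *MGARP* (0.861), *ETAA1* (0.848) and *CCDC127* (0.841), with a median of 0.219, and *ADRA2A* most like *RILPL2* (0.842), *CD164* (0.842) and *SEC61B* (0.837), with a median of -0.0837.

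In thyroid tissue all 6 genes passed the filter, and 0 of 6 were called by edgeR in each comparison. *ADRB3* passed it narrowly, and stayed in only 6 of the 14 fits that left out a lamb. The paper gives no sequencing fold change for *ADRB3* in this tissue, for want of counts. Against controls, 8.04% of 16122 genes were called in cold lambs and 7.8% in AT lambs. In cold lambs 2 of 6 receptor genes had an unadjusted p under 0.05 by edgeR, beside 5719 of the 16122 genes. In AT lambs 0 of 6 did, beside 5888. Between cold and AT lambs 0% of genes were called (870 genes at an unadjusted p under 0.05, and 2 called by DESeq2), with 0 of 6 receptor genes at an unadjusted p under 0.05. DESeq2 called 0 of 6 in all 3 comparisons, beside 1499 of all genes in cold and 1497 in AT lambs against controls. The median of all genes was shifted by -0.284 in both control comparisons and by 0.0162 and 0.0486 with TMM, and the called genes in cold lambs were 305 higher and 991 lower against 456 and 336 with TMM, and in AT lambs 294 and 964 against 474 and 270. The thyroid receptor values that follow are on the scale of the 3 reference genes, where that shift is present, and are not corrected for it.

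*ADRA1D* was at 103.2 and 214.3 normalized counts in the thyroid controls, at 57.5 to 86.4 (median 76.2) in cold lambs and at 64.7 to 240.2 (median 92.1) in AT lambs. Every cold lamb was below both controls, and the AT lambs overlapped with each. The log2FC in cold lambs was -1.11 ± 0.43 (95% interval -2.04 to -0.19, adjusted p = 0.0836), and the exact permutation test gave p = 0.0357, the smallest possible. The third control, at 26.9, was below all other libraries, and in a fit that used it instead of lamb 246 the value turned to 0.157. A fit of the 2 groups alone called the gene (-1.09, adjusted p = 0.0294), as did the fit without AT lamb 233 (-1.11, adjusted p = 0.0337). AT against control gave -0.46 ± 0.45 (adjusted p = 0.474), and cold against AT -0.65 ± 0.33 (adjusted p = 0.911). Smooth muscle and pericyte markers summed to 3454 to 5899 reads per kb in controls, 1579 to 3040 in cold lambs and 2427 to 4590 in AT lambs, with none of the 7 at 0, and their part was not tested.

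*ADRA1A* in thyroid tissue was at 38.0 and 29.1 normalized counts in the controls, at 12.8 to 25.6 (median 18.4) in cold lambs and at 16.2 to 31.4 (median 22.8) in AT lambs. Cold lambs did not overlap with the controls. The log2FC was -0.81 ± 0.34 in cold lambs (adjusted p = 0.0995, exact permutation p = 0.0357) and -0.58 ± 0.34 in AT lambs (adjusted p = 0.228). The third control was far above the others at 90.1, and with all 3 controls the gene was called in cold lambs (-1.45, adjusted p = 0.0148) and in AT lambs (-1.21, adjusted p = 0.0336). That call rested on lamb 238, since the 2 other controls alone gave none. Thyroid tissue of lamb 238 stood apart in markers of other cells, with sums of 21410 reads per kb for adrenal gland (at most 1086 in the libraries used), 24000 for adipocytes (at most 15060) and 2203 for brown adipocytes (at most 636.4). Summed brown adipocyte markers, *UCP1* and *PPARGC1A* among them, were also higher in the controls used (395.7 and 636.4) than in cold (171.2 to 339.4) and AT lambs (239.4 to 318.3). General adipocyte markers did not follow. They summed to 4273 to 4740 in these controls, 1976 to 8470 in cold and 1272 to 15060 in AT lambs. The adipocyte gene *ADIPOQ* averaged 219.8 normalized counts in these controls, 1202 in cold and 1707 in AT lambs. The part of all these markers in the *ADRA1A* levels was not tested.

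*ADRA1B*, the leading receptor gene of the thyroid by reads per kb, was at 77.1 and 62.2 normalized counts in controls, at 61.8 to 104.9 (median 85.2) in cold lambs and at 48.6 to 132.6 (median 74.4) in AT lambs. The groups overlapped fully. The log2FC against controls was 0.23 ± 0.40 in cold and 0.30 ± 0.40 in AT lambs, and -0.07 ± 0.27 for cold against AT (95% interval -0.66 to 0.51, adjusted p = 0.99). The third control, at 17.4 from 11 reads, was below all of them. Fits with it instead of lamb 237 gave 1.03 in cold and 1.11 in AT lambs, and instead of lamb 246 they gave 0.77 and 0.847, without a call.

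The beta genes and *ADRA2A* were low in thyroid tissue. *ADRB1* lay between 8.48 and 45.0 normalized counts, *ADRB3* between 2.01 and 38.1 and *ADRA2A* between 13.1 and 43.3, and every group overlapped with the others. Against controls the log2FC of *ADRB3* was -0.31 ± 0.76 in cold and 0.36 ± 0.77 in AT lambs, an interval of -1.94 to 1.31 in cold lambs, which includes the value measured in BAT. For *ADRB1* it was 0.11 ± 0.55 and -0.0061 ± 0.56, and for *ADRA2A* -0.22 ± 0.43 and -0.53 ± 0.43. Adjusted p-values of these 6 tests were between 0.385 and 0.994.

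**Figure D4:**
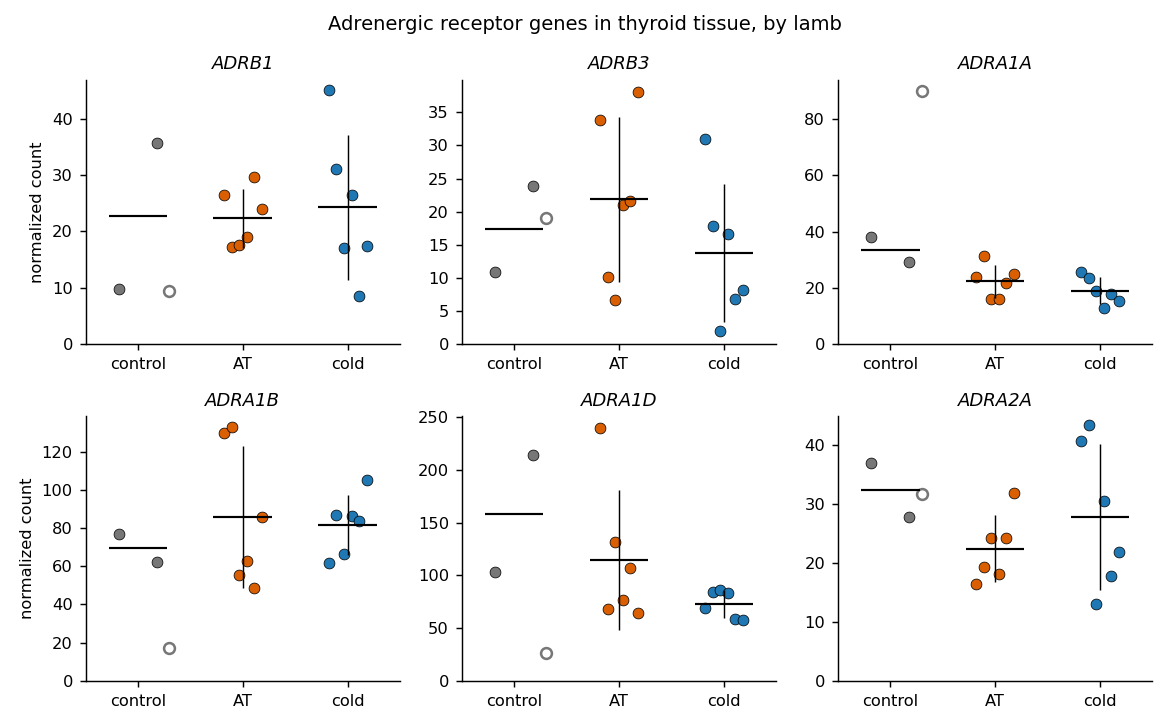
Normalized counts of the 6 receptor genes in thyroid tissue (vertical axes, starting at 0) by group, drawn as for BAT with filled points for the lambs used, open circles for the third control, and lines for the mean and 1 SD. *ADRA1D* and *ADRA1A* of all cold lambs lie below both filled controls, while the open circle is at 26.9 and 90.1.

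None of the 15 correlations between receptor genes in thyroid tissue passed as computed for BAT. The highest was *ADRB1* with *ADRB3* (r = 0.641 and rho = 0.71, permutation, adjusted p = 0.204 and 0.087). Its rho passed with TMM (0.763, permutation, adjusted p = 0.0315) and on values minus group means (0.789, permutation, adjusted p = 0.0201), and its r did not. *ADRB1* and *ADRA1A*, so close in BAT, had r = 0.0451 there (permutation, adjusted p = 0.878). The genes most like *ADRB1* among 16121 were *RERGL* (r = 0.9), *TBX18* (0.872) and *ZNF423* (0.804), with a median gene at 0.0429, and those most like *ADRA1D* were *NDUFA4L2* (0.899), *RDH5* (0.875) and *PPP1R14A* (0.859), with a median at 0.176. The other 4 receptors had weaker neighbours, led by *SLC5A10* for *ADRB3* (0.79), *GNLY* for *ADRA1B* (0.783), *RAB29* for *ADRA1A* (0.749) and *NSUN6* for *ADRA2A* (0.667).

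Whether the groups differed unlike in the tissues was tested by the difference between the tissues in each comparison. For cold against AT edgeR called 0 of 6 receptor genes, with 0 at an unadjusted p under 0.05, and 0% of all genes (1339 at an unadjusted p under 0.05, and 25 called by DESeq2). For cold against control edgeR called 0 of 6 beside 0.188% of genes, and for AT against control 0 of 6 beside 1.62%. At an unadjusted p under 0.05 there was 1 of 6 in both, beside 1999 and 3022 of the 17021 genes. DESeq2 called 0, 0 and 1 of 6, beside 25, 187 and 646 of all genes. *ADRA1B* came nearest. Its BAT reads did not pass the filter within BAT, and it entered the joint fit through its thyroid reads, so these values rest on 3 to 39 reads per BAT library. Its AT against control difference was lower in BAT than in thyroid tissue by a log2 value of -2.26 ± 0.71 (95% interval -3.73 to -0.79, adjusted p = 0.0944), and that of cold against control by -1.74 ± 0.70 (adjusted p = 0.32). For AT, DESeq2 called it (-2.31, adjusted p = 0.028), as did the fit with all 3 controls (-2.36, adjusted p = 0.0498), without AT lamb 240 (-2.58, adjusted p = 0.0366) and with lamb 238 in place of control 237 (-2.63, adjusted p = 0.0463).

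**Figure D5:**
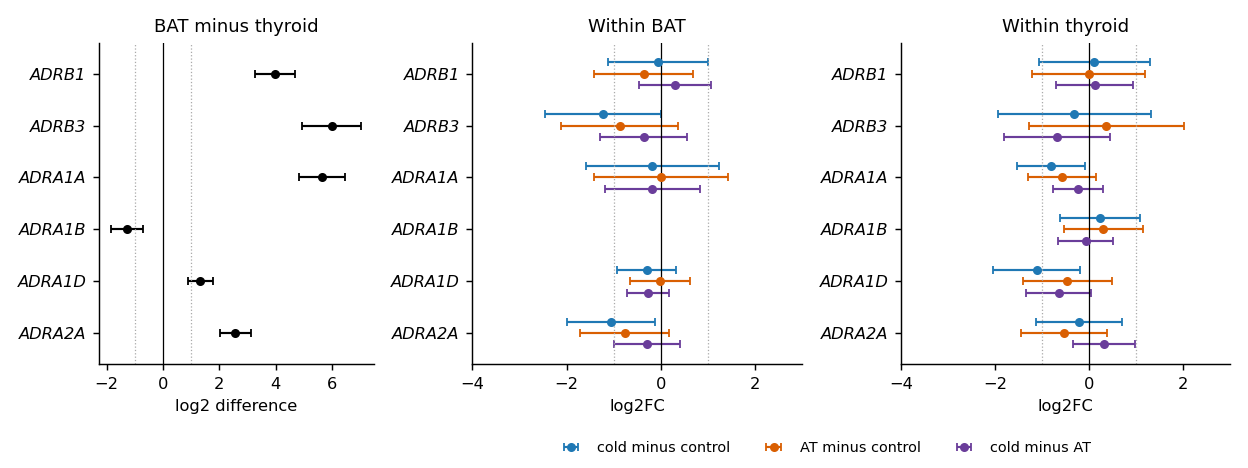
Log2 differences of the receptor genes with 95% intervals (horizontal axes), for BAT minus thyroid on the left and for the 3 group comparisons within BAT and thyroid tissue, with dotted lines at -1 and 1. The tissue differences run from -1.27 for *ADRA1B* to 5.99 for *ADRB3*, whereas most intervals within a tissue include 0, and *ADRA1B* was not tested in BAT.

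The partners of the receptors were taken from 6 lists of 78 genes in all, of which 68 were tested between the tissues. These lists were written with earlier results of these data known. In BAT against thyroid, 29 were higher and 7 lower, or 52.9% called against 39.2% of all genes. Known adrenergic targets in brown fat were mostly higher in BAT, 10 of 13 with 1 lower. The list holds genes of fat cells, some of them also brown adipocyte markers. Its count therefore cannot tell adrenergic signalling from the type of tissue. Among the higher ones were *CIDEA*, a lipid droplet protein (6.20 ± 0.54, adjusted p = 2.13e-10), and *LIPE*, hormone-sensitive lipase (4.65 ± 0.28, adjusted p = 7.46e-14). The lower one was *FABP3*, a fatty acid carrier of heart and muscle (-3.68 ± 0.31, adjusted p = 5.18e-11). Of genes that end receptor signalling 7 of 16 were higher and 2 lower, led by the receptor kinase *GRK5* (2.78 ± 0.16, adjusted p = 3.81e-14) and the cyclic AMP phosphodiesterases *PDE3A* (2.62 ± 0.16, adjusted p = 5.33e-14) and *PDE3B* (4.20 ± 0.25, adjusted p = 6.14e-14).

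The Gs and cyclic AMP list had 6 of 15 higher and 1 lower. The adenylyl cyclase *ADCY4* (3.83 ± 0.18, adjusted p = 5.85e-16) and the kinase subunit *PRKAR2B* (3.84 ± 0.30, adjusted p = 1.52e-11) were higher in BAT, and *ADCY9* was lower (-2.48 ± 0.19, adjusted p = 5.01e-12). The Gq and calcium list, which serves the alpha-1 receptors, had 2 of 13 higher, *PLCB1* and *PLCB2*, and 1 lower, *GNA14*. The Gi list had *GNAI1* higher and *GNAZ* lower of 4. Of 7 tested genes for the supply and clearance of catecholamines 3 were higher, among them *MAOB*, a monoamine oxidase (3.45 ± 0.31, adjusted p = 1.90e-10), and the uptake transporter *SLC22A3* (5.36 ± 0.49, adjusted p = 4.45e-10).

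Within BAT few of these partners changed. Between cold and AT lambs 0 of 67 tested were called in BAT and 0 of 68 in thyroid tissue, by edgeR and by DESeq2. At an unadjusted p under 0.05 there were 9 and 3, beside 1831 of 14905 and 870 of 16122 genes. Against controls 2 of 67 fell in BAT of cold lambs, which is 2.99% beside 1.21% of all genes. These were *AKAP1*, an anchor of the cyclic AMP dependent kinase at mitochondria (-3.71 ± 0.75, adjusted p = 0.0325), and *RGS16*, which shortens G protein signals (-1.5 ± 0.34, adjusted p = 0.0416). Neither call held when lamb 238 took the place of a control: *AKAP1* was then at -1.67 without lamb 237 and -3.23 without lamb 246, and *RGS16* at -0.415 and -0.827. In AT lambs 5 of 67 were called, 7.46% beside 6.07% of all genes. *AKAP1* (-4.69 ± 0.76, adjusted p = 0.00449), *RGS16* (-1.61 ± 0.34, adjusted p = 0.0114), *PDE4C* (-1.49 ± 0.42, adjusted p = 0.0369) and *FABP3* (-2.01 ± 0.48, adjusted p = 0.0194) fell, and *PDE4B* rose (1.32 ± 0.33, adjusted p = 0.0229). All but *PDE4B* lost the call without lamb 237, at -2.63, -0.507, -0.467 and -1.35.

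In thyroid tissue 10 of 68 partners were called in cold lambs against controls and 7 of 68 in AT lambs, all as lower, or 14.7% and 10.3% beside 8.04% and 7.8% of all genes. With TMM, which removes the shift of the median, 3 and 2 were called as lower and 0 and 1 as higher. *PRKCA*, a protein kinase C downstream of Gq, fell in cold (-1.46 ± 0.29, adjusted p = 0.00524) and AT lambs (-1.44 ± 0.29, adjusted p = 0.00453), and was called under every alternative run. *FABP3* fell by 2.20 ± 0.30 in cold and 2.29 ± 0.30 in AT lambs (adjusted p = 0.00127 and 0.000874), but was at -0.479 and -0.569 with lamb 238 in place of control 246. The calcium channel *ITPR3* fell by 1.55 ± 0.34 in cold lambs (adjusted p = 0.00909) and was at -0.397 without control 246. *PPARGC1A* fell by 1.23 ± 0.23 and 1.2 ± 0.23 (adjusted p = 0.00433 and 0.00405), and with TMM was at -0.897 and -0.841, short of the fold of the rule. The remaining calls, of *SLC18A2*, *AKAP1*, *ADCY3*, *GNAZ*, *PDE4C* and *PDK4* in cold lambs and of *SLC18A2*, *ADCY3*, *ITPR3* and *UCP1* in AT lambs, were all lost with TMM. Some of these kept a large difference with TMM, with *PDE4C* at -1.86 (adjusted p = 0.0648) and *PDK4* at -2.2 (adjusted p = 0.0872) in cold lambs and *UCP1* at -2.85 (adjusted p = 0.114) in AT lambs. Skeletal muscle markers summed to 169400 reads per kb in control 237, 48.3 in control 246, 1664000 in AT lamb 240, 88.2 to 557.7 in the other AT lambs and 40.1 to 1909 in cold lambs, and their part was not tested.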

How the data were processed

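The authors extracted RNA with TRIzol, captured mRNA with oligo(dT) beads and sequenced read pairs on the BGISEQ-500. Reads were trimmed with Trimmomatic 0.39, aligned with STAR 2.7.7a to Oar_rambouillet_v1.0 and counted with featureCounts (Subread 2.0.0), multimapping reads included. The strand setting is not given in the sources used here. The authors deposited whole-number counts per gene without normalization, for 30 libraries.

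The receptor genes, lists and rules were chosen with earlier results of these data known. Named genes were the 6 receptors, up to 3 called genes per list and comparison by adjusted p, 3 targets, reference and marker genes, and the 3 genes most like each receptor. A result of the catecholamine list is not reported here.

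Counts were fitted by edgeR 4.0.16 (R 4.3.3, quasi-likelihood, robust) per tissue with 3 groups, with size factors of *ACTB*, *RPL19* and *HUWE1*, and over both tissues with 6 groups. Genes needed 10 reads in 10 libraries. P-values were 2-sided. Intervals are 95%. The lowest chi-square per degree of freedom between libraries of a group was 55.9 in BAT and 38.3 in thyroid tissue, so that no library repeats another. The 2 controls were identified by proportion to the authors' normalized counts. Libraries of a lamb are paired by animal number. Their deviations from the group means correlated with a median r of 0.224 (lowest -0.00272, highest 0.371), and 11 of 14 lambs matched best with themselves. Alternatives were TMM, median-of-ratios size factors, DESeq2 1.42.0, all 3 controls, no filter, filterByExpr, the 2 groups alone, RNA integrity number as covariate, the lamb as block, adjusted p alone, exact permutation, and each lamb left out. All 3 controls with TMM and the test of the spread were added after the data were seen. Chromosome numbers were assigned through gene names in a RefSeq table of ARS-UI_Ramb_v3.0, and positions are those of the count table. The fit was tested on simulated counts.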

Additional observations from a re-analysis of the deposited data

How the results depend on the processing

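All 6 tissue differences kept their direction and call in every alternative run, the replicate block by lamb included, a paired fit in which they ran from -1.31 (*ADRA1B*) to 5.97 (*ADRB3*). Of these genes, *ADRA1B* passed the filter through thyroid tissue, where it was higher, and not within BAT. The block changed no call among the receptors. Within tissues, 1 receptor was called in BAT of AT lambs against controls with filterByExpr, 1 in thyroid tissue of cold lambs with all 3 controls, with TMM added, and in the fit of 2 groups, and 1 in AT lambs with all 3 controls. In the tissue difference of AT against control 1 was called by DESeq2 and with all 3 controls, with or without TMM. Leaving out 1 lamb gave counts of 0 to 1 in the 2 thyroid control comparisons and this difference. Where a control was left out, lamb 238 took its place. The cause of these changes was not tested.

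The direction turned for small values. In BAT against controls, *ADRB1* in cold lambs was at 0.038 with TMM, 0.023 with median-of-ratios factors and 0.0711 with all 3 controls, and -0.153 to 0.285 with 1 lamb left out. *ADRA1D* in cold lambs was at 0.285 with all 3 controls and 0.264 with TMM added (-0.341 to 0.644 with 1 lamb left out), and in AT lambs at 0.0544 with TMM, 0.0383 with median-of-ratios, 0.563 with all 3 controls and 0.478 with TMM added (-0.123 to 0.938). *ADRA1A* in AT lambs was at 0.0783 with TMM and 0.0651 with median-of-ratios (-0.632 to 0.207), and in cold against AT at 0.0734 with the RNA integrity number and 0.282 as a difference of mean logs (-0.421 to 0.455).

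In thyroid tissue of cold lambs against controls, *ADRB3* was at 0.0224 and *ADRA2A* at 0.0551 with TMM, and at 0.0255 and 0.06 with median-of-ratios. *ADRB1* in AT lambs was at 0.399, 0.393, 0.293 and 0.581 with TMM, median-of-ratios, all 3 controls and both, and at 0.2 as a difference of mean logs (-0.0802 to 1.21 with 1 lamb left out). *ADRA1D* in AT lambs was at 0.00365 with all 3 controls and 0.33 with TMM added (-0.816 to 0.811). With 1 lamb left out *ADRA1B* ran from 0.144 to 1.03 in cold and from 0.15 to 1.11 in AT lambs, without a call, *ADRA1D* in cold lambs ran from -1.16 to 0.157 and *ADRB1* from -0.165 to 1.32. In cold against AT the difference of mean logs was -0.0255 for *ADRB1* and 0.0178 for *ADRA1B*, with ranges of -0.169 to 0.294 and -0.205 to 0.0768. In AT lambs alone the log2 ratio of levels per kb turned for *ADRB1* over *ADRA1D* in BAT (-0.021), and in thyroid tissue for *ADRB3* over *ADRA2A* (0.343, a mean log ratio of -0.213 in all lambs) and *ADRA2A* over *ADRB1* (-0.0704).

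The counts over all genes, against which the receptors are read, depended more on the setting. In BAT of cold lambs against controls 181 genes became 318 with TMM, 324 with median-of-ratios, 628 with DESeq2, 340 in the fit of 2 groups, 727 with all 3 controls, and 1100 with all 3 controls and TMM together. In AT lambs 904 became 488 in the fit of 2 groups and 1640 with all 3 controls and TMM, and in cold against AT 41 ran from 0 with all 3 controls to 145 with DESeq2. In thyroid tissue 1296 and 1258 became 792 and 744 with TMM and 789 and 739 with median-of-ratios, and 1258 became 713 in the fit of 2 groups. For the tissue difference of cold against control 32 ran from 15 without a filter to 187 with DESeq2, for that of AT against control 275 ran from 179 without a filter to 749 with all 3 controls, and for that of cold against AT 0 became 1 with the replicate block, 6 with TMM and 25 with DESeq2.

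Among the BAT correlations, *ADRB3* with *DIO2* passed in both measures only with all 3 controls (r = 0.638 and rho = 0.668, permutation, adjusted p = 0.0317 and 0.0405), and *ADRB3* with *ADRA1A* did not pass with TMM (r = 0.624, permutation, adjusted p = 0.064). *ADRB1* with *ADRA1A*, with *UCP1* and with *DIO2*, and *ADRA1A* with *DIO2*, passed in r and rho in all 3 alternatives run for correlations. With all 3 controls, though, *ADRB1* and *UCP1* had r = 0.269 without the 2 farthest libraries.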
